A study of Homo sapiens with 8 samples.

Results

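Mitochondrial carriers of the SLC25 family were followed in human keratinocytes in which respiration and ATP synthesis had been blocked together. The group holds every gene of the count table named SLC25A and a number, plus UCP2, MTCH2 and the mitochondrial pyruvate carrier genes MPC1 and MPC2. These are 52 of the 61806 genes listed, and 44 of them had at least 10 counts in at least 4 libraries and were tested among 14893 genes. The rule reads gene names, not counts.

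The cells were N/TERT-1, a line of human skin keratinocytes immortalized with telomerase, left without genetic change here. In O/A, 4 libraries came from cells given 10 µM oligomycin, which inhibits the ATP synthase, and 4 µM antimycin A, which inhibits complex III, for 4 hours. In ethanol, 4 libraries came from cells given the solvent alone for the same 4 hours. Each condition was taken from 4 independent experiments with cells of the same line, and polyadenylated RNA was sequenced from whole cultures.

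The inner mitochondrial membrane is closed to most metabolites, and carriers of this family exchange nucleotides, phosphate, carboxylates, amino acids and cofactors across it. Most of them are small proteins built of 3 repeats, encoded in the nucleus and inserted into the inner membrane by the TIM22 complex. Dividing keratinocytes rely on them to export ATP, to move reducing equivalents inward and to release citrate for the synthesis of fatty acids and cholesterol.

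Between 17210404 and 20999927 reads were counted per library. Levels of a gene across libraries are given as CPM, counts relative to the library's total after TMM scaling. Levels of different genes are compared as FPKM, which is divided by the exonic length of the gene. A gene was called upregulated, or downregulated, if edgeR's quasi-likelihood test put its adjusted p-value at 0.05 or less and its log2 fold change, O/A against ethanol, lay beyond 0.25 in that direction. Summed FPKM of 8 keratinocyte markers lay between 3326 and 3574 in ethanol and between 3072 and 3226 in O/A, with KRT5 downregulated (log2 fold change -0.30) and DSG3 upregulated (0.99). Summed FPKM of the other marker lists was at most 2.95 for 6 fibroblast genes, 0.66 for 5 melanocyte genes, 0.88 for 5 immune genes and 0.08 for 4 endothelial genes, and the immune sum was 0.46 to 0.62 in ethanol and 0.65 to 0.88 in O/A. COL1A1 gave nearly all of the fibroblast sum (376 to 557 counts per library, log2 fold change -0.059) and alone of that list was testable. Of the immune genes CD68 alone was testable (log2 fold change 0.56, at most 33 counts per library), and 2 melanocyte genes and 1 immune gene were at 0 throughout. The part of these marker changes in the values below was not tested. In bulk RNA, fewer cells that express a gene and less of its mRNA per cell cannot be told apart.

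Among the 44 tested carriers, 7 were upregulated, which is 15.9% of them against 15.8% of all genes tested, and 6 were downregulated, which is 13.6% against 18.9%. At any fold, 19 carriers (43.2%) had an adjusted p-value up to 0.05, against 53.7% of all genes. None of the carriers passed a log2 fold change of 1 in either direction, which 5.35% of all genes did. Every O/A library was above every ethanol library for 9 carriers (20.5%, against 22.8% of all genes) and below for 8 (18.2%, against 24.8%). The median log2 fold change was 0.048 over the carriers and -0.0004 over all genes, and single carriers ran from -0.78 to 0.90. The shares of carriers called were close to or below those of all genes, and the called members were spread over several substrate classes.

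**Figure D1:**
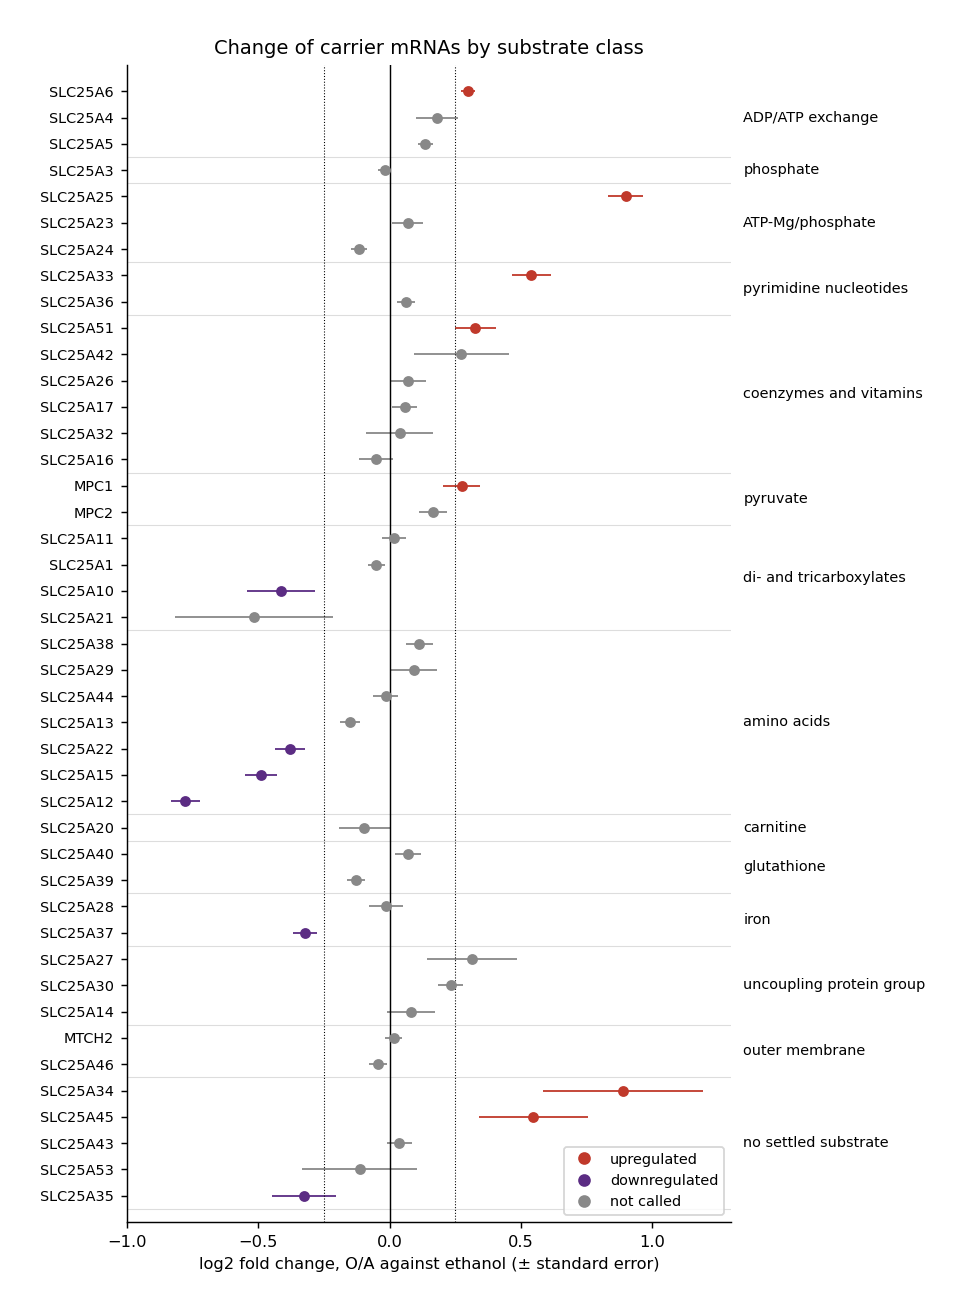
Log2 fold change of the tested carrier mRNAs reported by name, O/A against ethanol, with its standard error, grouped by substrate class; dotted lines mark a change of 0.25 in either direction. The 7 upregulated members lie in 6 classes, and 3 of the 6 downregulated members carry amino acids.

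The summed FPKM of all 52 genes was 721 to 749 in ethanol and 741 to 779 in O/A. SLC25A5 alone gave 25.7% to 26.5% of it in ethanol and 26.2% to 27.4% in O/A. SLC25A6 gave 18.2% to 18.5% in ethanol and 20.8% to 21.7% in O/A, so its share was higher in every O/A library. SLC25A3, the phosphate carrier, came next with 7.51% to 7.62% in ethanol and 6.91% to 7.12% in O/A. This order depends on the division by exonic length, which is 8896 bases for SLC25A3, 1555 for SLC25A5 and 1553 for SLC25A6. In counts, SLC25A3 was above both in every library.

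**Figure D2:**
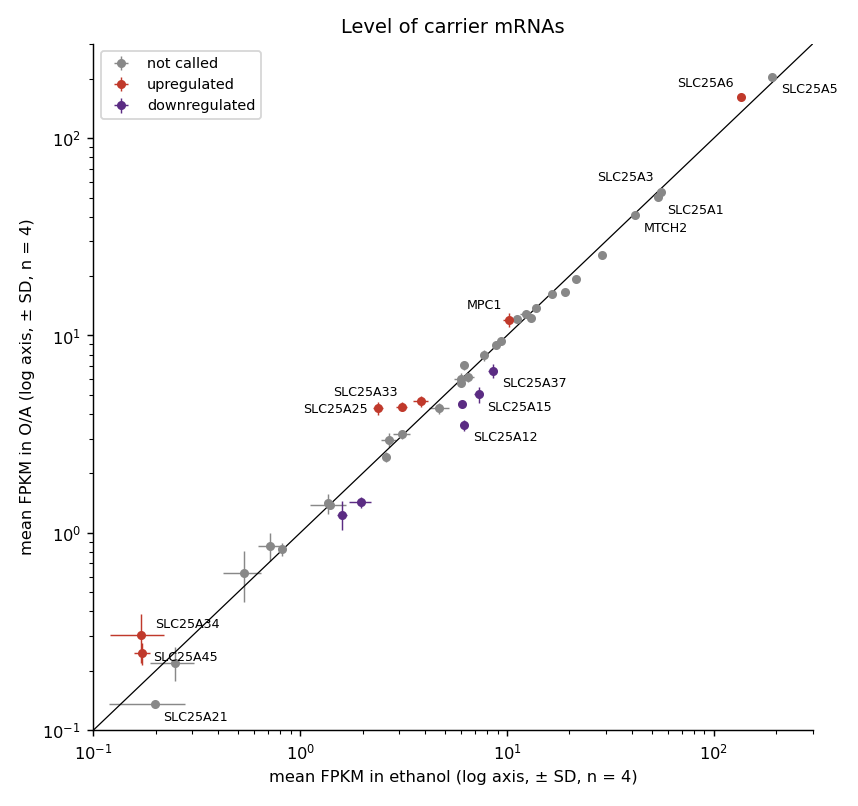
Mean FPKM of the tested carriers reported by name in O/A against that in ethanol, on log axes, with the SD over 4 libraries; the line marks equal levels. SLC25A5 and SLC25A6 lie highest and near the line, and the largest changes lie among members below 10 FPKM.

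The strongest rise was that of SLC25A25 (ENSG00000148339, chr9:128068201-128109245, + strand), a calcium-regulated carrier that exchanges ATP-Mg for phosphate and so sets the adenine nucleotide pool of the matrix. SLC25A25 was at 13.6, 14.4, 14.6 and 13 CPM in ethanol replicates 1 to 4 and at 24.7, 25.3, 28.8 and 24.5 CPM in O/A replicates 1 to 4. All O/A libraries lay above all ethanol libraries, with a gap wider than the spread of either condition. The log2 fold change was 0.90 (SE 0.068, n = 4 against 4, adjusted p = 1.75e-16 in edgeR's quasi-likelihood test), a rise of 86.4%. On the opposite strand, NAIF1 and SLC25A25-AS1 overlap this gene, with 25.7% and 12.7% of its counts and log2 fold changes of -0.39 and -0.82. Whether reads were counted by strand is not given in the sources used here, so reads in the overlap cannot be assigned with certainty.

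The other carriers of the class moved otherwise. SLC25A24, the most abundant of them, was at 142, 141, 149 and 142 CPM in ethanol and at 134, 129, 129 and 137 CPM in O/A. It was lower in every O/A library, but by a log2 fold change of only -0.12 (SE 0.031, adjusted p = 0.00136 in edgeR's quasi-likelihood test), inside the fold threshold. SLC25A23 was at 31.8, 27.0, 28.8 and 27.1 CPM in ethanol and at 31.7, 27.7, 32.0 and 28.7 CPM in O/A, and the conditions overlapped. CRB3 overlaps SLC25A23 on the opposite strand, with 37.8% of its counts and a log2 fold change of 0.30. SLC25A41 had at most 3 counts in any library and was not tested. Of the 3 members tested in this class 1 was therefore upregulated and 0 downregulated.

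The FPKM of SLC25A24 divided by that of SLC25A25 was 9.22, 8.62, 8.96 and 9.60 in ethanol and 4.78, 4.49, 3.94 and 4.94 in O/A. All O/A ratios lay below all ethanol ratios, with a change of -1.01 on the log2 scale (two-sided exact permutation test, p = 0.0286). That p is the smallest that 4 libraries against 4 can give, and such ratios were computed for 11 pairs without adjustment. The ratio of SLC25A24 to SLC25A23 changed by -0.18 and overlapped between conditions (exact permutation p = 0.0857).

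Among called carriers whose substrate is settled, the next largest rise was that of SLC25A33 (ENSG00000171612, chr1:9539465-9585173, + strand). This carrier imports pyrimidine nucleotides for the synthesis of mitochondrial DNA and RNA. SLC25A33 was at 11.0, 12.3, 11.4 and 12.3 CPM in ethanol and at 18.3, 17.2, 16.3 and 16.8 CPM in O/A, with no overlap. Its log2 fold change was 0.54 (SE 0.075, adjusted p = 1.88e-08 in edgeR's quasi-likelihood test), a rise of 45.3%. SLC25A36, the other pyrimidine nucleotide carrier, was at 90.9, 86.7, 89.4 and 93.2 CPM in ethanol and at 96.1, 93.9, 93.0 and 93.4 CPM in O/A. These values overlapped, and the log2 fold change was 0.06 (SE 0.034, adjusted p = 0.124). The FPKM of SLC25A33 per FPKM of SLC25A36 went from 0.323 to 0.381 in ethanol to 0.467 to 0.509 in O/A (change 0.48 on the log2 scale, exact permutation p = 0.0286).

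Promoter windows of these genes are printed because 3 carriers share an element there, 2 of which were upregulated. RefSeq (GRCh38.p14) gives a window of 250 bases before and 50 after a start for 44 of the 52 genes. The cyclic AMP response element TGACGTCA, which reads the same on both strands, was found in windows of SLC25A25, SLC25A33 and SLC25A36. It was in 1.85% of all 35116 windows and in those of 2.25% of genes. All 7 upregulated carriers had a window, and 2 of them held this element. Only 4 of the 6 downregulated carriers had a window, and 0 of those held it. A link between the element and the changes was not tested. The E-box CACGTG, also palindromic, was in windows of 10 of the 44 carriers, among them SLC25A33, SLC25A36, SLC25A51 and SLC25A22, in 7.26% of all windows and in those of 8.77% of genes. Both motifs were searched after the fold changes had been seen. The 250 bases before the start follow, 5′ to 3′, with TGACGTCA and CACGTG in capitals, and the window of SLC25A12, the member that fell most, is given beside them.
SLC25A25, chr9:128098257-128098506, + strand: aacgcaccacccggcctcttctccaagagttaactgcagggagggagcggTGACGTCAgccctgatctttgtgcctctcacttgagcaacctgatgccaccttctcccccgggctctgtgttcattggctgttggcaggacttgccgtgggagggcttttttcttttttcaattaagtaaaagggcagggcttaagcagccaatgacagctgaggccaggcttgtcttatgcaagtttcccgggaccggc
SLC25A33, chr1:9539215-9539464, + strand: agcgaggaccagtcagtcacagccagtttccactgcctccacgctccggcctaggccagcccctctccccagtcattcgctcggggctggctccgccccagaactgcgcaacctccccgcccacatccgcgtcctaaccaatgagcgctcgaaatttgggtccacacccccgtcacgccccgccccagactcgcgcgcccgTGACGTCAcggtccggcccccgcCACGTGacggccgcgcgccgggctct
SLC25A36, chr3:140941586-140941835, + strand: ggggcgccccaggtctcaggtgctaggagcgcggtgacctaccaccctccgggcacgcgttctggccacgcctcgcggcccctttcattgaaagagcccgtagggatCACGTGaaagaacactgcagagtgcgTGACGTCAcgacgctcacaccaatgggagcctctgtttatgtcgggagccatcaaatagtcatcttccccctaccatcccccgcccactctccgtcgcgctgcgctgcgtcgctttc
SLC25A12, chr2:171894245-171894494, - strand: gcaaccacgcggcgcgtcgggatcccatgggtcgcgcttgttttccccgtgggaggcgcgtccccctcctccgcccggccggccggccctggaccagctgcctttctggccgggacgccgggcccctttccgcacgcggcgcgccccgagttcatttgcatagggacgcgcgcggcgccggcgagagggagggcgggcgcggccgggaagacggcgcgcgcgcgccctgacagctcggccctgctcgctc
The element starts 200 bases before the start in SLC25A25, 49 bases before in SLC25A33 and 117 bases before in SLC25A36. The SLC25A25 window belongs to 1 of 3 listed starts and lies inside the gene as the count table bounds it, as does the printed window of SLC25A12. SLC25A36, with both motifs, was not called, and the window of SLC25A12 held neither. Of 3 other motifs searched, the core of the C/EBP-ATF response element (TGATGNAA, 3.62% of windows) was found in SLC25A11 and the NRF1 core (GCGCATGC, 3.05%) in MTCH2. The estrogen-related receptor element (TCAAGGTCA, 0.353%) was found in none of the carriers. The searches covered both strands, and a match describes letters in the window and does not show a bound factor.

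Adenine nucleotide translocases exchange matrix ATP for cytosolic ADP, and SLC25A5 and SLC25A6 among them were the most abundant carriers by FPKM. SLC25A6 (ENSG00000169100, chrX:1386152-1392113, - strand) was at 207, 204, 210 and 205 CPM in ethanol and at 263, 248, 255 and 252 CPM in O/A. The conditions were well apart, and the log2 fold change was 0.30 (SE 0.027, adjusted p = 1.27e-13 in edgeR's quasi-likelihood test). SLC25A5, the main form of dividing cells, was at 303, 289, 297 and 284 CPM in ethanol and at 337, 328, 312 and 313 CPM in O/A. All O/A values were higher, with a log2 fold change of 0.14 (SE 0.028, adjusted p = 4.3e-05), inside the fold threshold. SLC25A4, the heart and muscle form, was at 14.3, 11.8, 11.9 and 13 CPM in ethanol and at 15.0, 15.9, 13.4 and 13.6 CPM in O/A, with overlap (log2 fold change 0.18, adjusted p = 0.0508). SLC25A31, the germ cell form, had at most 4 counts in any library.

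Per length, SLC25A5 stood at 191 ± 5.34 FPKM in ethanol and 204 ± 7.86 in O/A, and SLC25A6 at 135 ± 2.01 and 161 ± 3.70 (mean ± SD, n = 4). SLC25A4 stood at 2.69 ± 0.232 FPKM in ethanol and 2.96 ± 0.247 in O/A. The ratio of SLC25A5 to SLC25A6 was 1.46, 1.41, 1.41 and 1.39 in ethanol and 1.28, 1.32, 1.23 and 1.24 in O/A. Every O/A ratio was lower, by 0.16 on the log2 scale (exact permutation p = 0.0286), while SLC25A5 remained the higher of the pair in all 8 libraries. The ratio of SLC25A4 to SLC25A5 lay between 0.0129 and 0.0152 in ethanol and between 0.0139 and 0.0157 in O/A (exact permutation p = 0.486).

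SLC25A3, which brings in the phosphate that ATP synthesis consumes, was at 498, 484, 491 and 479 CPM in ethanol and at 487, 484, 469 and 486 CPM in O/A. The conditions overlapped, and the log2 fold change was -0.018 (SE 0.025, adjusted p = 0.564).

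The largest fall was that of SLC25A12 (ENSG00000115840, chr2:171783405-171999859, - strand), known as aralar or AGC1. It exports aspartate in exchange for glutamate, a step of the malate-aspartate shuttle that carries cytosolic reducing equivalents into mitochondria. SLC25A12 was at 36.7, 38.1, 38.9 and 36.5 CPM in ethanol and at 21.2, 24.0, 21.5 and 20.7 CPM in O/A. All O/A libraries lay far below all ethanol libraries, and the log2 fold change was -0.78 (SE 0.055, adjusted p = 1.59e-17 in edgeR's quasi-likelihood test), so that the level fell by 41.7%. HAT1 overlaps it on the opposite strand, with 299% of its counts and a log2 fold change of -0.034.

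SLC25A13, citrin or AGC2, performs the same exchange and is the more abundant of the pair here. SLC25A13 was at 70.0, 67.1, 71.4 and 68.9 CPM in ethanol and at 62.1, 65.3, 59.4 and 62.9 CPM in O/A. It too was lower in every O/A library, but by -0.15 on the log2 scale (SE 0.039, adjusted p = 0.000971 in edgeR's quasi-likelihood test), inside the fold threshold. SLC25A12 per SLC25A13 in FPKM was 0.317, 0.345, 0.330 and 0.320 in ethanol and 0.207, 0.222, 0.220 and 0.199 in O/A. The ratio was lower in every O/A library, with a change of -0.63 on the log2 scale (exact permutation p = 0.0286), and SLC25A12 made up 24.7% of the pair in ethanol and 17.5% in O/A.

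Other amino acid carriers fell as well. SLC25A15, the ornithine carrier of the urea cycle and of ornithine use in mitochondria, was at 29.3, 28.5, 31.6 and 30.7 CPM in ethanol and at 22.1, 18.4, 22.7 and 22.5 CPM in O/A. The conditions did not overlap, O/A replicate 2 being the lowest, and the log2 fold change was -0.49 (SE 0.061, adjusted p = 1.42e-09 in edgeR's quasi-likelihood test). SLC25A22, which imports glutamate, was at 27.8, 26.9, 26.1 and 28.4 CPM in ethanol and at 22.0, 21.2, 20.9 and 20.0 CPM in O/A. It was lower in every O/A library, with a log2 fold change of -0.38 (SE 0.058, adjusted p = 1.88e-07). SLC25A18, the other glutamate carrier, had at most 3 counts in any library and was not tested, so no ratio of that pair was computed.

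The 4 other amino acid carriers tested were not called, counting SLC25A13. SLC25A38, the glycine carrier needed for heme synthesis, had a log2 fold change of 0.11 (SE 0.052, adjusted p = 0.0617), SLC25A29, which carries basic amino acids, one of 0.09 (SE 0.089) and SLC25A44, which carries branched-chain amino acids, one of -0.015 (SE 0.046). SLC25A2, a second ornithine carrier, had at most 1 count in any library. Of the 7 members of this class tested, 3 were downregulated and 0 upregulated, with a median log2 fold change of -0.15. Over all genes tested 18.9% were downregulated and 15.8% upregulated, and 7 members are too few to set a share apart from these.

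**Figure D3:**
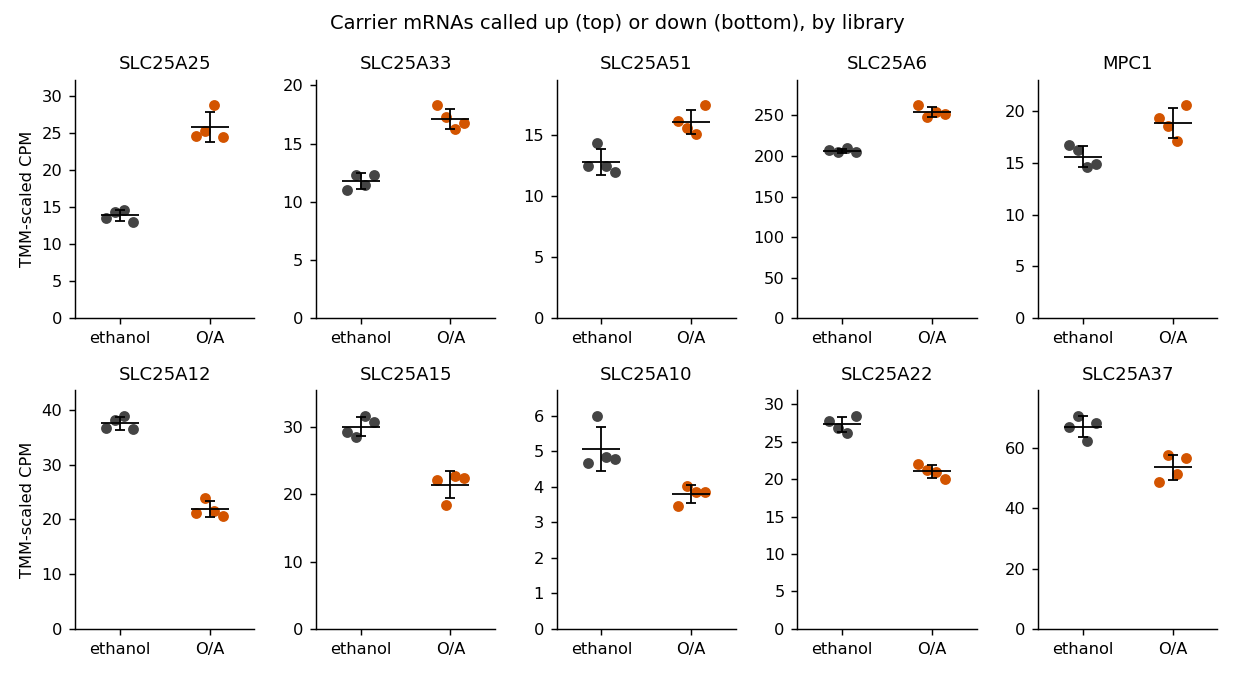
TMM-scaled CPM by library of 10 called carriers, 5 upregulated (top) and 5 downregulated (bottom), with the mean and SD of 4 libraries per condition; each axis starts at 0. The libraries of the conditions do not overlap in these panels; the 3 called carriers of no settled substrate are not drawn, and SLC25A34 and SLC25A35 among them do overlap.

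Carriers of di- and tricarboxylates include the citrate carrier SLC25A1, whose export of citrate feeds the synthesis of fatty acids and sterols. SLC25A1 was at 106, 105, 107 and 104 CPM in ethanol and at 106, 101, 98.8 and 102 CPM in O/A. The values overlapped, and the log2 fold change was -0.05 (SE 0.033, adjusted p = 0.205 in edgeR's quasi-likelihood test). SLC25A10, the dicarboxylate carrier that exchanges malate or succinate for phosphate, was at 4.69, 6.0, 4.84 and 4.80 CPM in ethanol and at 3.45, 4.04, 3.86 and 3.85 CPM in O/A. It was lower in every O/A library, with ethanol replicate 2 above the rest, and the log2 fold change was -0.41 (SE 0.13, adjusted p = 0.00606).

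SLC25A11, the oxoglutarate-malate carrier and the other membrane step of the malate-aspartate shuttle, was at 41.2, 40.5, 38.9 and 40.2 CPM in ethanol and at 39.9, 40.3, 40.8 and 41.6 CPM in O/A. The conditions overlapped (log2 fold change 0.015, SE 0.046, adjusted p = 0.805), and RNF167 on the opposite strand overlaps the gene with 225% of its counts. The ratio of SLC25A10 to SLC25A11 in FPKM was 0.107 to 0.139 in ethanol and 0.0812 to 0.0945 in O/A (change -0.43 on the log2 scale, exact permutation p = 0.0286). SLC25A21, which carries oxoadipate, was under 1.5 CPM in every library, and its log2 fold change of -0.51 had an SE of 0.301 (adjusted p = 0.148). PAX9 and an antisense gene overlap SLC25A21 with more counts than its own.

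Pyruvate enters mitochondria through a complex of MPC1 and MPC2. MPC1 was at 16.8, 16.2, 14.6 and 14.9 CPM in ethanol and at 19.3, 18.6, 17.1 and 20.6 CPM in O/A. All O/A libraries were higher, by a log2 fold change of 0.27 (SE 0.071, adjusted p = 0.000923 in edgeR's quasi-likelihood test), just past the fold threshold. Without O/A replicate 4 this value was 0.23, and MPC1 was then not called. MPC2 was at 29.2, 29.7, 29.6 and 27.6 CPM in ethanol and at 33.8, 33.2, 31.2 and 31.8 CPM in O/A. It was also higher in every O/A library, by 0.17 on the log2 scale (SE 0.052, adjusted p = 0.0062), inside the threshold, and DCAF6 overlaps it on the opposite strand with 368% of its counts. The ratio of MPC1 to MPC2 in FPKM, 0.842 to 0.979 in ethanol and 0.936 to 1.10 in O/A, overlapped (change 0.11 on the log2 scale, exact permutation p = 0.171).

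Among carriers of coenzymes and vitamins, SLC25A51, which imports NAD+, was the one called of 7 tested. SLC25A51 (chr9:37879400-37904353, - strand) was at 12.4, 14.4, 12.5 and 11.9 CPM in ethanol and at 16.2, 15.5, 15.1 and 17.4 CPM in O/A. The conditions did not overlap, and the log2 fold change was 0.33 (SE 0.077, adjusted p = 0.000278 in edgeR's quasi-likelihood test). Its close relative SLC25A52 had at most 4 counts in any library.

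SLC25A17, the peroxisomal cofactor carrier and the most abundant of the class, was at 37.4, 35.3, 38.0 and 35.9 CPM in ethanol and at 39.8, 38.0, 36.5 and 38.3 CPM in O/A, with overlap. SLC25A16 and SLC25A42 (coenzyme A), SLC25A26 (S-adenosylmethionine) and SLC25A32 (folate and FAD) had log2 fold changes from -0.05 to 0.27. On the opposite strand, DCAF13 overlaps SLC25A32 with 1266% of its counts, and LRIG1 overlaps SLC25A26 with 8.03%. SLC25A42, at 0.27, rested on 1.99 to 3.02 CPM in ethanol and 2.47 to 4.26 CPM in O/A (SE 0.182, adjusted p = 0.21).

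The mitoferrins import iron for heme and iron-sulfur clusters. SLC25A37, or mitoferrin 1, was at 67.1, 70.7, 62.5 and 68.3 CPM in ethanol and at 48.9, 57.7, 51.6 and 56.8 CPM in O/A. All O/A libraries were lower, with a log2 fold change of -0.32 (SE 0.047, adjusted p = 2.2e-07 in edgeR's quasi-likelihood test). SLC25A28, or mitoferrin 2, was at 20.7, 24.0, 21.8 and 20.3 CPM in ethanol and at 20.1, 22.6, 22.2 and 20.8 CPM in O/A, with overlap (log2 fold change -0.013, SE 0.064). SLC25A28 per SLC25A37 in FPKM rose from 0.723, 0.795, 0.815 and 0.696 in ethanol to 0.963, 0.917, 1.01 and 0.858 in O/A (change 0.31 on the log2 scale, exact permutation p = 0.0286).

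Glutathione reaches the matrix through SLC25A39 and SLC25A40. SLC25A39 was at 95.8, 104, 98.8 and 101 CPM in ethanol and at 93.3, 91.3, 86.2 and 95.0 CPM in O/A. Every O/A library was lower, by -0.13 on the log2 scale (SE 0.035, adjusted p = 0.00193 in edgeR's quasi-likelihood test), inside the fold threshold. SLC25A40 was at 37.3, 40.7, 38.0 and 40.0 CPM in ethanol and at 44.6, 40.0, 38.8 and 40.5 CPM in O/A, with overlap, and DBF4 overlaps the gene on the opposite strand with 115% of its counts and a log2 fold change of -0.61. The ratio of SLC25A39 to SLC25A40 in FPKM was 3.63 to 3.75 in ethanol and 3.02 to 3.39 in O/A (change -0.20 on the log2 scale, exact permutation p = 0.0286).

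In the group around the uncoupling proteins, which dissipate the proton gradient or carry other anions, none of 3 members tested was called. SLC25A30 was at 43.1, 42.5, 41.4 and 39.1 CPM in ethanol and at 51.6, 48.7, 49.7 and 45.0 CPM in O/A. It was higher in every O/A library, by 0.23 on the log2 scale (SE 0.047, adjusted p = 3.2e-05 in edgeR's quasi-likelihood test), just inside the fold threshold. TPT1-AS1 overlaps SLC25A30 on the opposite strand, with 26.6% of its counts and a log2 fold change of 0.99.

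SLC25A14 was at 9.64, 9.87, 9.28 and 7.90 CPM in ethanol and at 9.55, 9.81, 10.2 and 9.08 CPM in O/A, with overlap. Its ratio to SLC25A30 in FPKM was 0.456 to 0.525 in ethanol and 0.418 to 0.464 in O/A (change -0.15 on the log2 scale, exact permutation p = 0.0571). SLC25A27, at 1.99 to 2.68 CPM in ethanol and 2.30 to 3.28 CPM in O/A, had a log2 fold change of 0.31 (SE 0.170, adjusted p = 0.117). UCP2 had 7, 7, 7 and 12 counts in ethanol and 12, 12, 9 and 4 counts in O/A, too few for the test.

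SLC25A20, the carnitine-acylcarnitine carrier of fatty acid oxidation, was at 9.16, 7.80, 9.97 and 8.32 CPM in ethanol and at 8.80, 7.76, 7.89 and 8.51 CPM in O/A. The conditions overlapped (log2 fold change -0.10, SE 0.097, adjusted p = 0.422 in edgeR's quasi-likelihood test). The carriers of the outer membrane overlapped as well. MTCH2, an insertase for outer membrane proteins, was at 119, 118, 122 and 112 CPM in ethanol and at 125, 117, 114 and 120 CPM in O/A (log2 fold change 0.015), and SLC25A46, which bears on fission and lipid transfer, had a log2 fold change of -0.04 (SE 0.034).

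Of 5 members tested whose substrate is not settled, 2 were upregulated and 1 downregulated, all at low levels. SLC25A34 was at 0.754, 0.449, 0.399 and 0.611 CPM in ethanol and at 0.690, 0.916, 1.32 and 1.21 CPM in O/A. O/A replicate 1 lay below ethanol replicate 1, and the log2 fold change of 0.89 had an SE of 0.305 (adjusted p = 0.012 in edgeR's quasi-likelihood test). Without O/A replicate 3 it was 0.75 (adjusted p = 0.0585), so the call did not hold in that smaller fit. An unnamed gene overlaps SLC25A34 on the opposite strand with 20.5% of its counts.

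SLC25A45 was at 1.40, 1.40, 1.42 and 1.18 CPM in ethanol and at 1.84, 1.94, 1.75 and 2.36 CPM in O/A, without overlap. Its log2 fold change was 0.55 (SE 0.207, adjusted p = 0.023), and the call was lost without ethanol replicate 4 (0.49, adjusted p = 0.067), without O/A replicate 4 (0.45, adjusted p = 0.0839) in DESeq2 (adjusted p = 0.057) and with no filter on low counts (adjusted p = 0.0514). SLC25A35 was at 6.52, 6.23, 5.64 and 6.44 CPM in ethanol and at 5.35, 5.87, 3.97 and 4.65 CPM in O/A, and O/A replicate 2 lay above ethanol replicate 3. The log2 fold change was -0.33 (SE 0.121, adjusted p = 0.02 in edgeR's quasi-likelihood test), and it was -0.22 without O/A replicate 3 (adjusted p = 0.135), -0.30 without O/A replicate 4 (adjusted p = 0.0564), -0.30 without ethanol replicate 1 (adjusted p = 0.055) and -0.32 in DESeq2 (adjusted p = 0.0561), none of which passed. RANGRF overlaps SLC25A35 on the opposite strand with 254% of its counts.

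SLC25A43 was at 39.1, 40.6, 38.4 and 36.3 CPM in ethanol and at 40.1, 39.0, 39.0 and 40.2 CPM in O/A, with overlap, and SLC25A53, at most 2.21 CPM in any library, was not called. SLC25A47 had no count in any library, and SLC25A48 had at most 2. Expression of SLC25A47 was therefore not detected at this depth, which does not show that it is absent.

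Of 10 genes of the machinery that inserts carriers into the inner membrane, 1 was upregulated and 2 were downregulated, against 15.8% and 18.9% of all genes. TIMM22, the channel of the TIM22 complex, had a log2 fold change of -0.35 (SE 0.0532, adjusted p = 1.52e-07 in edgeR's quasi-likelihood test), and TOMM70, the outer membrane receptor for carrier precursors, one of -0.33 (SE 0.0325). TIMM10B, a subunit of the TIM22 complex, had one of 0.29 (SE 0.0458). None of these overlapped between conditions, and the other 7 genes of the list were not called.

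Among 20 other mitochondrial transporters, 2 were upregulated and 5 downregulated, against 15.8% and 18.9% of all genes. The sodium-calcium exchanger SLC8B1 rose most (0.42, SE 0.0554) and the inner membrane cation exchanger LETM1 fell most (-0.47, SE 0.0352). GHITM was the other upregulated gene of this list (0.28, SE 0.0272). The sideroflexins SFXN1, SFXN2, SFXN3 and SFXN5, a family that includes serine transporters, were downregulated with log2 fold changes from -0.46 to -0.37, while SFXN4 of the same family was not called (-0.012, with overlap).

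The enzymes that work with the NADH shuttles comprised 7 genes, 1 upregulated and 1 downregulated, close to or below the 15.8% and 18.9% of all genes. GOT1, the cytosolic aspartate aminotransferase of the malate-aspartate shuttle, was at 53.6 to 59.6 CPM in ethanol and 153 to 171 CPM in O/A. All O/A libraries were higher, by a log2 fold change of 1.51 (SE 0.0383, adjusted p = 7.28e-32 in edgeR's quasi-likelihood test), opposite in sign to SLC25A12 of the same shuttle. GPD1L had a log2 fold change of -0.30 (SE 0.0787).

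Of 5 enzymes of the carnitine shuttle, CPT1B was upregulated and CPT2 downregulated, again near the shares over all genes. CPT2, which acts on the matrix side after SLC25A20, was at 26.2 to 28.6 CPM in ethanol and 12.8 to 14.6 CPM in O/A, without overlap (log2 fold change -0.99, SE 0.0645, adjusted p = 8.45e-19 in edgeR's quasi-likelihood test). CPT1B, the muscle form of the outer membrane enzyme, was at 2.34 to 3.53 CPM in ethanol and 3.51 to 4.65 CPM in O/A, with overlap (log2 fold change 0.52, SE 0.153, adjusted p = 0.00351).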

How the data were processed

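The authors sequenced polyadenylated RNA of 8 libraries as paired ends, aligned it to GRCh38.p13 with HISAT2 2.0.1 and counted it on Ensembl genes with HTSeq 0.6.1. The deposited counts are not normalized, and the FPKM values, which the authors derived from them by exonic size and library total, are a second set of columns. The Ensembl release and the strand setting are not given in the sources used here. The authors' table of their DESeq2 comparison was not used.

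Conditions and replicate numbers follow the labels, while doses and time follow the study's legends. The 52 members, their substrate classes and all gene lists and pairs were chosen with earlier results of these data known. Not every member is reported by name here. Values are given by class, and per library for the 5 largest called rises and falls, the most abundant member of each class and the members of each pair. They are also given for the called genes of each list.

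Counts were tested with edgeR 4.0.16 in R 4.3.3 (TMM, robust quasi-likelihood test) after genes with 10 or more counts in 4 or more libraries had been kept, with Benjamini-Hochberg adjustment over 14893 genes. Ratios of FPKM between pairs were compared by a two-sided exact permutation test (scipy 1.17.1). Alternatives were DESeq2 1.42.0, median-ratio scaling, no filter, limma 3.58.1 on log2(FPKM + 0.1) and log2(FPKM + 1), other fold thresholds, a replicate block, and refits that dropped 1 library each. On simulated data edgeR recovered 95 of 100 genes changed by 0.5 on the log2 scale and 100 of 100 changed by 1, with 7 false calls among 14893 genes. Recovery there was scored by adjusted p-value alone, without the fold threshold. Far fewer genes were changed than in the data, where 53.7% had an adjusted p-value up to 0.05. The changed genes were drawn from better counted ones, so these rates do not cover SLC25A34, SLC25A45, SLC25A21, SLC25A53 or SLC25A27. No 2 libraries of a condition agreed within sampling noise (chi-square per degree of freedom 1.81 to 6.19). Coordinates are those of the authors' table, and promoter sequences come from RefSeq.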

Additional observations from a re-analysis of the deposited data

Results flagged for a closer look

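In groups of 4 libraries, 1 library stood apart from the other 3 in 7 of 88 cases by Dixon's criterion, where about 4.4 are expected by chance. Among called carriers, SLC25A45 was at 1.18 CPM in ethanol replicate 4 against 1.40 to 1.42 in the other ethanol libraries. SLC25A10 was at 6.0 CPM in ethanol replicate 2 against 4.69 to 4.84. The O/A libraries of SLC25A15 ran from 22.1 to 22.7 CPM apart from replicate 2 at 18.4. Among carriers not called, the O/A libraries of SLC25A42 ran from 2.47 to 2.70 CPM apart from replicate 2 at 4.26, and those of SLC25A3 from 484 to 487 CPM apart from replicate 3 at 469. In ethanol replicate 3, SLC25A38 was at 35.2 CPM against 31.1 to 31.8, and SLC25A24 was at 149 CPM against 141 to 142.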

How the results depend on the processing

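Of the 13 called carriers, 8 (SLC25A25, SLC25A33, SLC25A6, SLC25A12, SLC25A15, SLC25A10, SLC25A22 and SLC25A37) kept their call in all 14 refits, and all 13 kept their sign. On log2(FPKM + 1), which shrinks low genes, 3 carriers were upregulated instead of 7, and SLC25A34 (0.15), SLC25A45 (0.086), SLC25A51 (0.23), MPC1 (0.21) and SLC25A35 (-0.22) lost their calls. On log2(FPKM + 0.1) MPC1 (0.23) lost its call. The FPKM values in these settings were not TMM-scaled. The median log2 fold change of all genes was -0.043 on log2(FPKM + 0.1) and -0.028 on log2(FPKM + 1). The part of this shift in the lost calls and turned signs was not tested. With a log2 fold change above 1 required, 0 carriers were called in either direction, and 1 of the 14 calls among the 42 genes of the 4 pathway lists remained, that of GOT1. With no fold threshold these lists held 24 calls. Leaving out 1 library gave 6 to 8 upregulated and 5 to 6 downregulated carriers. SLC25A30 was then called without ethanol replicate 1 (0.26) or O/A replicate 4 (0.27), and SLC25A27 without O/A replicate 1 (0.41). A test of 3 libraries against 4 cannot give an exact p under 0.0571, so the ratios of pairs could not pass there. Libraries with the same replicate number did not deviate together (their correlations were -0.028 to 0.074 over 14893 genes), and with the replicate block 7 carriers were upregulated and 6 downregulated, the same genes. Members whose log2 fold change turned sign were not called in any setting. They were SLC25A43 (-0.0091 on log2(FPKM + 0.1), -0.0086 on log2(FPKM + 1)), SLC25A11 (-0.030 and -0.028) and MTCH2 (-0.031 and -0.030), and on leaving out a library MTCH2 (-0.0037 to 0.041), SLC25A28 (-0.040 to 0.043), SLC25A32 (-0.076 to 0.12), SLC25A44 (-0.030 to 0.012) and SLC25A53 (-0.21 to 0.056). Over these settings the median log2 fold change of all genes stayed between -0.043 and 0.023. Few counts limit SLC25A34, SLC25A45, SLC25A21 and SLC25A53, each at most 2.36 CPM in any library.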
